A study of Rattus norvegicus with 18 samples.

Results

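The integrated stress response genes described here are Atf4, Atf3, Ddit3, Trib3, Chac1, Asns, Psat1, Phgdh and Sesn2, 9 of the 21574 genes compared in rat primary hepatocytes. They were chosen by name, as the transcription factor ATF4 with well-known targets and partners, and each was read from its brightest probe. All 9 members passed the filter on dim probes, lay well above background on all 18 arrays and were never saturated. None of the 9 passed the test against DMSO with any of the 4 compounds, where 0.0417% to 0.987% of all genes passed, depending on the compound. How small a change could be seen differed by gene, because Phgdh and Asns varied little between replicate arrays, whereas Chac1 and Trib3 varied most.

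In the integrated stress response, kinases that sense amino acid shortage, misfolded protein in the endoplasmic reticulum, double-stranded RNA or haem deficiency phosphorylate the translation factor eIF2alpha. Bulk translation then falls while the mRNA of ATF4 is translated more, and ATF4 with its partners raises genes for amino acid synthesis and import, for redox defence and, when stress lasts, for cell death. In liver the same genes follow protein intake and drug-induced stress. ATF4 itself is largely controlled at translation, which an mRNA array does not measure.

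A composite site for C/EBP and ATF factors, through which ATF4 acts on many targets, was searched in the RefSeq promoters (assembly GRCr8) of the 8 members other than Atf3. The search covered 250 bases before to 50 bases after the start site, on both strands, for the letters TGATGNAA or their reverse complement TTNCATCA, where N is any base. The start sites used for Asns and Psat1 lay inside the annotated genes, so the bases before the outer 5′ ends of these genes were not searched. A match was found in 2 members, Chac1 and Trib3, and in 3.98% of all 33469 promoters in the table. These are also the members whose levels varied most between replicate arrays, so the 250 bases before their start sites are shown, 5′ to 3′ in the direction of the gene, with the match in capitals. Both matches are the reverse complement form. The Chac1 bases lie at chr3:126795881-126796130 on the plus strand and those of Trib3 at chr3:161275534-161275783 on the minus strand.
Chac1: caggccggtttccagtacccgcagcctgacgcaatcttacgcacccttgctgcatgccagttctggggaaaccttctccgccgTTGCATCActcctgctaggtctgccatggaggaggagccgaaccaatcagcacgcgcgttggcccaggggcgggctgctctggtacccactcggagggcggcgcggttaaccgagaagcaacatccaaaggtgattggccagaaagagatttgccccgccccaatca
Trib3: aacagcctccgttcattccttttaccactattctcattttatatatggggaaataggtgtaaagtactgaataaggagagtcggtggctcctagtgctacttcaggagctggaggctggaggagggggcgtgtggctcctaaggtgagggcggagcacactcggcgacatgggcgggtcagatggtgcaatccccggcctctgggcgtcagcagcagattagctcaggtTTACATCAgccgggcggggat
The match in Chac1 ran from base -167 to -160 and that in Trib3 from -21 to -14, counted from the start site. None of these 8 members held the cyclic AMP response element TGACGTCA, present in 1.83% of promoters, or the endoplasmic reticulum stress response element, CCAAT and CCACG with any 9 bases between them, present in 0.0657%. With no such match, no overlap between motifs arose, and a match is a description of the letters only.

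Cryopreserved hepatocytes from male Sprague Dawley (SD) rats were cultured for 24 h and then exposed for 24 h. The groups were 300 µM DDMB, CDMB or CDEB with the DMSO control VC_1, and 300 µM DDEB with the DMSO control VC_2 on another chip lot, each with 3 arrays. The compounds are known from the labels by these codes and belong to the p-dialkoxy chlorobenzenes of the study's title, which asks for their modes of action. The design text calls the 3 replicates independent experiments, and the labels do not say whether their cells came from different animals, which means that a p-value here covers only how far these cultures differed from one another. Thawed hepatocytes in culture are a short-term model of liver.

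Levels are given as the log2 of the array's processed intensity minus the 75th percentile of that array, so that 1 unit is a 2-fold step. They can be compared between arrays for 1 gene and not between genes, whose probes differ. Spots well above background made up 61.0% to 64.3% of an array. All 12 hepatocyte markers were measured, with summed linear signals of 2056 to 2695 times the 75th percentile in VC_1, 2535 to 3288 in VC_2, 2079 to 2744 with DDMB, 3052 to 3242 with DDEB, 2651 to 2799 with CDMB and 2625 to 2910 with CDEB. VC_1 and DDMB shared a slide, CDMB and CDEB shared another, and VC_2 shared one with 2 DDEB arrays, while DDEB replicate 3 lay on a slide of its own. For CDMB and CDEB against VC_1, compound and slide therefore cannot be told apart, and a dim spike-in control read 1.23% to 1.32% of a bright one with CDMB and 1.21% to 1.28% with CDEB against 1.98% to 2.04% in VC_1. That ratio was 1.78% to 2.02% with DDMB, 1.73% to 1.83% in VC_2 and 1.09% to 1.66% with DDEB, and its part in the results was not tested.

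Some arrays stood apart from their own group before any comparison was made. Chac1, a gamma-glutamylcyclotransferase that breaks down glutathione, lay at 0.87, 0.70 and -0.36 in VC_1 (replicates 1, 2 and 3). It lay at 0.83, 0.55 and -0.47 in VC_2. Trib3, a pseudokinase that ATF4 induces and that restrains ATF4 in turn, lay at 2.06, 1.93 and 1.12 in VC_1 and at 2.03, 1.99 and 1.07 in VC_2. In both controls replicate 3 was thus the low array for both genes. Among DDMB arrays replicate 2 was lowest, with Chac1 at 0.54, -0.60 and -0.24 and Trib3 at 1.94, 1.19 and 1.69. DDEB arrays had Chac1 at 1.01, 0.25 and -0.11 but Trib3 at 1.96, 1.87 and 1.99, so the pair did not move together there. The CDMB arrays lay close together, with Chac1 at 0.83, 0.86 and 0.91 and Trib3 at 1.97, 1.89 and 1.85. The CDEB arrays did too, with Chac1 at 0.75, 0.92 and 0.81 and Trib3 at 1.93, 1.91 and 1.89.

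**Figure D1:**
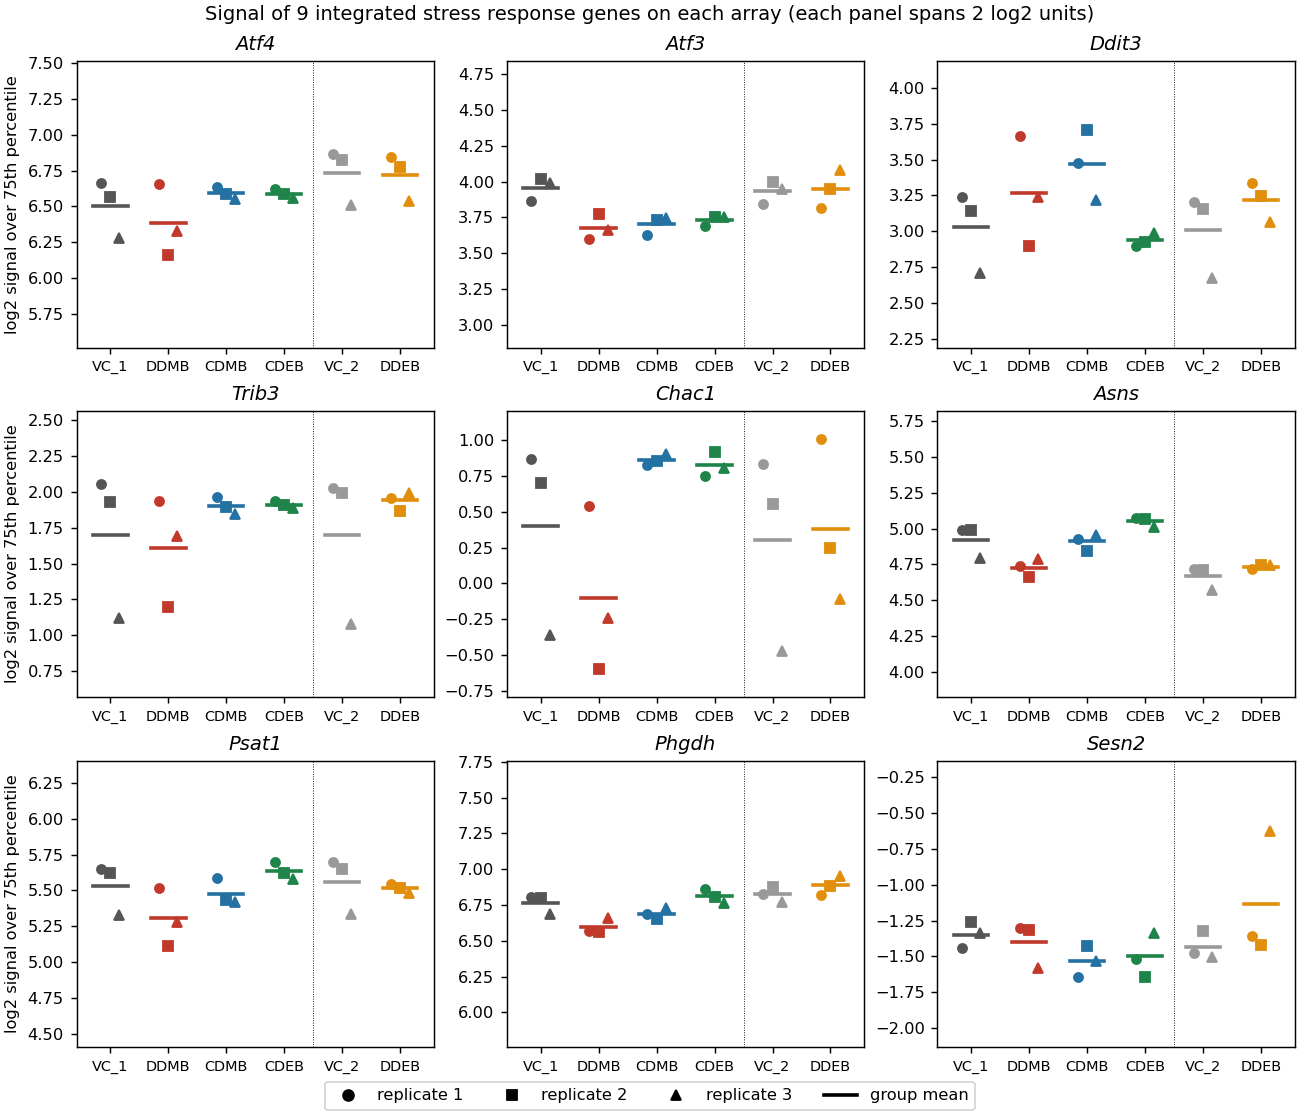
Level of each member on each array (y axis, log2 processed intensity minus the array's 75th percentile; every panel spans 2 log2 units) by group (x axis), with replicates 1, 2 and 3 as circles, squares and triangles and the group mean as a bar; the dotted line parts the chip lots. Replicate 3 is the low array of both DMSO groups for Chac1 (-0.36 and -0.47) and Trib3 (1.12 and 1.07), whereas the 3 CDEB arrays of Trib3 lie between 1.89 and 1.93.

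The residual SD of Chac1 over the 18 arrays, after group means were taken out, was 0.51, and that of Trib3 was 0.34, against a median of 0.16 over all genes. Within-group differences made up 82.5% of the variance of Trib3 and 62.2% of that of Chac1, against a median of 45.1% over all genes. This share was 64.1% for Sesn2, 57.5% for Psat1, 57.0% for Ddit3, 56.0% for Atf4 and 24.4% for Atf3. At the other end, Phgdh had a residual SD of 0.056 and Asns one of 0.069, with 18.5% and 14.7% of their variance within groups. The median SD of the members within a group was 0.060 with CDMB and 0.045 with CDEB, against 0.18 in VC_1, 0.19 in VC_2, 0.20 with DDMB and 0.13 with DDEB. Over all genes the corresponding medians were 0.095, 0.074, 0.15, 0.14, 0.14 and 0.19.

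Genes of cell identity differed on the same arrays. The hepatocyte enzyme gene Cps1, of the urea cycle, lay at 3.45, 3.36 and 1.72 in VC_1, at 3.59, 3.46 and 1.79 in VC_2 and at 3.99, 2.62 and 3.56 with DDMB. Of the Kupffer cell markers 2 of 8 were measured, and one of them, the lysosomal gene Cd68, lay at 2.10, 1.57 and -0.95 in VC_1, at 2.38, 1.85 and -0.59 in VC_2 and at 2.08, -1.18 and 0.044 with DDMB. With DDEB, Cps1 lay at 3.53, 3.26 and 2.07 and Cd68 at 2.04, 1.43 and -0.47. In each of these 4 groups both genes were lowest on the array where Chac1 was lowest. The summed hepatocyte marker signal was also lowest on that array in VC_1, VC_2 and DDMB. With DDEB it was lowest on replicate 2 (3052 times the 75th percentile, against 3100 on replicate 3, where Chac1 was lowest). The mean deviation of the hepatocyte markers from their group means was nevertheless lowest on DDEB replicate 3 (-0.21). The summed signal of the measured Kupffer cell markers ranged from 0.547 to 4.34 times the 75th percentile in VC_1, from 0.699 to 5.29 in VC_2, from 0.466 to 4.24 with DDMB and from 0.756 to 4.18 with DDEB. It ranged from 3.96 to 4.50 with CDMB and from 3.67 to 4.21 with CDEB. Nearly all of that sum came from Cd68, with a mean level of 1.25 against -4.75 for Clec4f, the other measured marker. With DDMB, Clec4f lay above its group mean on replicate 2, where Cd68 was lowest. For the cholangiocyte markers (3 of 6 measured) the ranges were 3.33 to 5.08 in VC_1, 3.21 to 4.75 in VC_2, 2.98 to 4.92 with DDMB, 3.55 to 4.85 with DDEB, 3.00 to 3.15 with CDMB and 3.01 to 3.15 with CDEB. Most of this sum came from Epcam, whose mean level was 1.72, against -1.88 for Sox9 and -4.72 for Krt7. On DDEB replicate 3 the sum was the group's highest (4.85). There the mean deviation of the 3 markers from their group means was the group's lowest (-0.14). The part of the cells' makeup in the members' values was not tested, and in such bulk cultures fewer cells of a type and less RNA per cell cannot be told apart.

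For every member, the difference between same-numbered DMSO arrays of the 2 lots varied less than the member did within either DMSO group. The 3 differences of VC_2 minus VC_1 were -0.040, -0.15 and -0.11 for Chac1, with an SD of 0.053 against an SD of 0.67 within VC_1 and 0.69 within VC_2. For Ddit3, which encodes the pro-apoptotic factor CHOP, they were -0.037, 0.013 and -0.039. Atf4 differed by 0.21, 0.26 and 0.23, so its higher level on the second lot was nearly constant over the numbers. Asns, the asparagine synthetase gene, differed by -0.27, -0.28 and -0.22. Over all genes the median SD of these differences was 0.069, and the deviations from the group mean correlated at 0.468 to 0.808 for equal numbers and at -0.678 to 0.374 for unequal ones. The labels do not say whether VC_1 and VC_2 arrays of one number came from the same cultures.

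**Figure D2:**
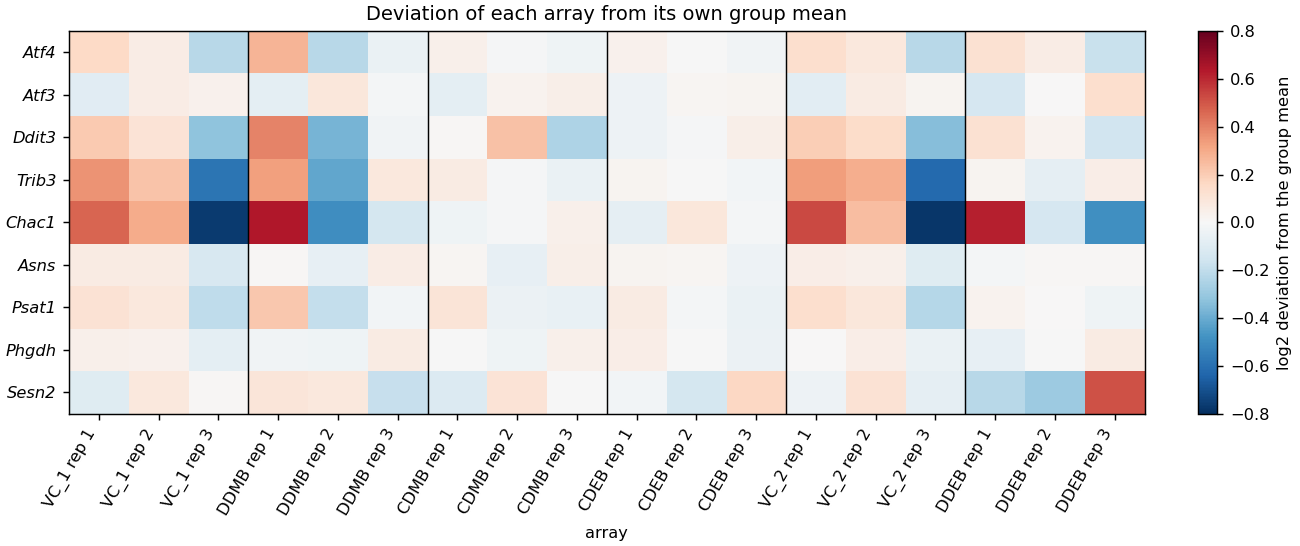
Deviation of each member (rows) on each array (columns) from its own group mean, as a colour from -0.8 to 0.8 log2 units, with lines between groups. VC_1 replicate 3 and VC_2 replicate 3 show nearly the same column, lowest for Chac1, and the CDMB and CDEB columns are pale except for Ddit3 with CDMB, with median member SDs of 0.060 and 0.045.

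The members were then compared with DMSO, beginning with the transcription factors. Atf4 lay at 6.66, 6.56 and 6.28 in VC_1, at 6.66, 6.16 and 6.33 with DDMB, at 6.63, 6.58 and 6.56 with CDMB and at 6.62, 6.59 and 6.56 with CDEB. These arrays overlapped in every comparison. The log2 differences of Atf4 were -0.12 with DDMB (95% interval -0.41 to 0.17), 0.089 with CDMB (-0.20 to 0.38) and 0.087 with CDEB (-0.20 to 0.37). In the second lot Atf4 lay at 6.87, 6.82 and 6.51 in VC_2 and at 6.84, 6.78 and 6.54 with DDEB, a difference of -0.015 (-0.30 to 0.27).

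Atf3, a stress-induced factor that can repress or activate its targets, was the member with the lowest p-value in each comparison with VC_1. It lay at 3.87, 4.02 and 3.99 in VC_1. With DDMB it lay at 3.60, 3.77 and 3.66, with CDMB at 3.63, 3.73 and 3.75 and with CDEB at 3.69, 3.75 and 3.75. Every array of these 3 compounds was below every VC_1 array. The log2 differences were -0.28 ± 0.076 with DDMB, -0.26 ± 0.076 with CDMB and -0.22 ± 0.076 with CDEB (± SE, n = 3 a group), and limma's adjusted p was 0.147, 0.222 and 0.245, so none passed. The 3 comparisons share the same VC_1 arrays. With the replicate number as a block, Atf3 was called with DDMB (limma adjusted p = 0.0365), among 165 of the 21574 genes. Whether the numbers pair VC_1 with DDMB is not settled. With DDEB, Atf3 lay at 3.82, 3.95 and 4.08 against 3.85, 4.00 and 3.95 in VC_2, and the groups overlapped (0.016 ± 0.076).

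Ddit3 lay at 3.24, 3.14 and 2.71 in VC_1 and at 3.48, 3.70 and 3.22 with CDMB, where 1 CDMB array fell just below the highest control. Its log2 difference with CDMB was 0.44 ± 0.20 (1.35-fold, limma adjusted p = 0.369), and 0.28 without VC_1 replicate 3. With DDMB it lay at 3.67, 2.90 and 3.24, and with CDEB at 2.90, 2.93 and 2.99, both overlapping the controls, with differences of 0.24 and -0.092 (0.079 and -0.25 without VC_1 replicate 3). In the second lot it lay at 3.20, 3.15 and 2.67 in VC_2 and at 3.34, 3.25 and 3.06 with DDEB, a difference of 0.21 (95% interval -0.22 to 0.63), and 0.037 without VC_2 replicate 3.

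For the feedback inhibitor Trib3 and for Chac1, whose array values are given above, the groups overlapped in all 4 comparisons. Chac1 differed by -0.50 with DDMB (95% interval -1.34 to 0.34), by 0.46 with CDMB (-0.38 to 1.30), by 0.42 with CDEB (-0.42 to 1.26) and by 0.078 with DDEB (-0.76 to 0.92). These intervals leave room for more than a 2-fold change in Chac1 with CDMB and CDEB upwards and with DDMB downwards. Trib3 differed by -0.092 with DDMB, 0.20 with CDMB, 0.21 with CDEB and 0.24 with DDEB, each with an SE of 0.26. Replicate 3 of the DMSO groups weighed on these values. Without VC_1 replicate 3, Chac1 differed by -0.89 with DDMB, 0.078 with CDMB and 0.040 with CDEB. Trib3 then differed by -0.38, -0.090 and -0.081, and Atf4 by -0.23, -0.022 and -0.024. Without VC_2 replicate 3 the differences with DDEB were -0.31 for Chac1, -0.069 for Trib3 and -0.13 for Atf4. Of these 12 values only those of Chac1 with CDMB and CDEB were above 0.

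Asns and Phgdh, of amino acid synthesis, gave the narrowest intervals. Asns lay at 4.99, 4.99 and 4.79 in VC_1, and at 4.74, 4.66 and 4.79 with DDMB, where the highest DDMB array (4.788) was just below the lowest control (4.792). With CDMB it lay at 4.93, 4.85 and 4.96, inside the control range, and with CDEB at 5.07, 5.07 and 5.01, above every control. The log2 differences were -0.20 ± 0.067, -0.014 ± 0.067 and 0.13 ± 0.067, with limma adjusted p of 0.283, 0.951 and 0.421. DDEB arrays lay at 4.72, 4.75 and 4.74 against 4.72, 4.71 and 4.57 in VC_2, a difference of 0.070 (95% interval -0.073 to 0.21). Between the DMSO groups of the 2 lots, Asns differed by -0.26 (limma adjusted p = 0.0134) and was the one member called, where 21.7% of all genes were. With the replicate number as a block on the DMSO arrays its adjusted p was 0.00336 (24.8% of all genes called). Atf4, higher by 0.23 in VC_2, was not called without or with that block (limma adjusted p = 0.254 and 0.147).

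Phgdh, the first enzyme of serine synthesis from glycolysis, lay at 6.80, 6.80 and 6.69 in VC_1 and at 6.57, 6.56 and 6.66 with DDMB, again without overlap. Its difference with DDMB was -0.16 ± 0.059 (0.89-fold, limma adjusted p = 0.316). It lay at 6.68, 6.65 and 6.73 with CDMB and at 6.86, 6.81 and 6.76 with CDEB, both overlapping the controls (-0.074 and 0.047). With DDEB it lay at 6.82, 6.88 and 6.95 against 6.83, 6.88 and 6.77 in VC_2 (0.060, 95% interval -0.067 to 0.19). Psat1, the next enzyme of that pathway, lay at 5.65, 5.62 and 5.33 in VC_1 and at 5.52, 5.11 and 5.28 with DDMB, a difference of -0.23 ± 0.12 (limma adjusted p = 0.564). CDMB arrays of Psat1 lay at 5.58, 5.43 and 5.42, CDEB arrays at 5.70, 5.62 and 5.58 and DDEB arrays at 5.55, 5.52 and 5.48 against 5.70, 5.65 and 5.33 in VC_2. All of these overlapped their controls, with differences of -0.054, 0.10 and -0.046.

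Psat1 and Phgdh each had a second, dimmer probe. The second Psat1 probe differed by -0.27, 0.13, 0.30 and 0.20 with DDMB, CDMB, CDEB and DDEB, so its sign was opposite to that of the brighter probe for CDMB and DDEB. The second Phgdh probe differed by -0.23, -0.23, -0.11 and -0.10, with the opposite sign for CDEB and DDEB. For both enzymes, both probes were lower with DDMB.

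Sesn2, a stress-induced inhibitor of the growth kinase mTORC1, lay at -1.44, -1.26 and -1.34 in VC_1, at -1.30, -1.32 and -1.58 with DDMB, at -1.64, -1.43 and -1.53 with CDMB and at -1.52, -1.64 and -1.34 with CDEB. These overlapped, with differences of -0.052, -0.19 and -0.15. With DDEB it lay at -1.35, -1.42 and -0.62 against -1.47, -1.32 and -1.51 in VC_2. The 0.30 difference (limma adjusted p = 0.411) came with 1 high array, DDEB replicate 3, the array on its own slide. On the slide that VC_2 shared with the other two DDEB arrays, the difference was 0.046.

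Counted together, 0 of 9 members were called by limma with DDMB, where 0.556% of all genes were called, and 3 had an unadjusted p under 0.05 (9.90% of all genes). With DDMB 8 of 9 members were lower (median -0.16 against 0.014 over all genes), and 8 of 9 were also lower with normexp background correction, with quantile normalization and in the authors' deposited tables. Of these 3, Atf3, Asns and Phgdh, did not overlap VC_1, where 5.61% of all genes were lower without overlap. With CDMB 0 of 9 were called (0.0417% of all genes), 2 had an unadjusted p under 0.05 (13.3%) and 1, Atf3, was lower without overlap (12.5%). With CDEB 0 of 9 were called (0.134%), 1 had an unadjusted p under 0.05 (13.3%), Asns was higher without overlap (15.8%) and Atf3 lower (13.5%). With DDEB 0 of 9 were called (0.987%), 0 had an unadjusted p under 0.05 (15.2%) and 0 were without overlap (16.5%). For CDMB, CDEB and DDEB the medians were -0.014, 0.087 and 0.070, against 0.012, 0.0085 and 0.017 over all genes. With replicate 3 of both DMSO groups left out, the medians were -0.26 with DDMB, -0.090 with CDMB, -0.024 with CDEB and 0.022 with DDEB, and 8, 7, 5 and 4 of 9 members were lower. For a single gene, an exact permutation test of 3 against 3 arrays cannot go below p = 0.1.

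**Figure D3:**
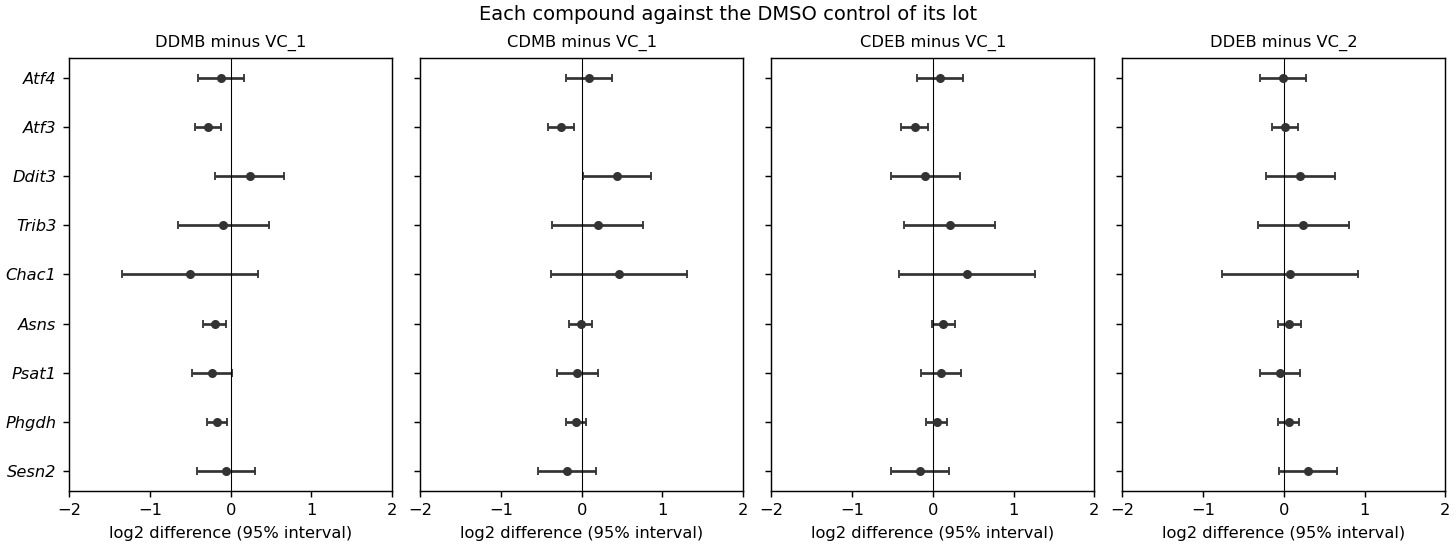
Log2 difference of each member (rows) from the DMSO control of its lot, with limma's 95% interval, for DDMB, CDMB and CDEB minus VC_1 and DDEB minus VC_2 (n = 3 arrays a group). Intervals are narrow for Phgdh (-0.29 to -0.038 with DDMB) and wide for Chac1 (-1.34 to 0.34), and intervals that leave out 0 belong to genes that did not pass after adjustment over all genes.

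The compounds were also compared with one another at the matched dose and time, in 6 pairs, with p-values adjusted over all genes and all 6 pairs. None of the 9 members passed in any pair. The lowest adjusted p was that of Asns for DDMB against CDEB, which share no slide. DDMB arrays (4.66 to 4.79) all lay below CDEB arrays (5.01 to 5.07), a difference of -0.32 ± 0.067 (0.80-fold, limma adjusted p = 0.0774). Phgdh (-0.21 ± 0.059), Psat1 (-0.33 ± 0.12) and Chac1 (-0.93 ± 0.39) were also lower without overlap in that pair, with adjusted p of 0.192, 0.332 and 0.447. Thus 4 of 9 members did not overlap downwards, where 15.6% of all genes did, 0.672% of all genes were called and 4 members had an unadjusted p under 0.05 (20.2%).

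Between DDMB and CDMB, 2 of 9 members, Chac1 (-0.96 ± 0.39) and Asns (-0.18 ± 0.067), were lower without overlap (11.8% of all genes), and 2 had an unadjusted p under 0.05 (16.5%), with 0.371% of all genes called. CDEB and CDMB shared a slide. There 3 of 9 members did not overlap, where 19.5% of all genes did not. Ddit3 was lower with CDEB, at 2.90 to 2.99 against 3.22 to 3.70 (-0.53 ± 0.20, limma adjusted p = 0.368), and Asns (0.14) and Phgdh (0.12) were higher. In this pair 1 member had an unadjusted p under 0.05 (4.72%), and 0.0603% of all genes were called. Atf4, Trib3 and Chac1 differed by -0.0021, 0.0083 and -0.038 in this pair, with 95% intervals of -0.29 to 0.28, -0.55 to 0.57 and -0.88 to 0.80.

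DDEB was set against the others as a difference of effects, each over the control of its lot. Against DDMB the effect on 8 of 9 members was higher with DDEB, with a median of 0.26 over the members and 0.0091 over all genes. The member medians over DMSO were 0.070 with DDEB and -0.16 with DDMB. The largest by p were Asns (0.26 ± 0.094), Atf3 (0.29 ± 0.11) and Phgdh (0.22 ± 0.083), with limma adjusted p of 0.335, 0.357 and 0.363. These are the 3 with an unadjusted p under 0.05, where 5.79% of all genes were, and 0.0278% of all genes were called. Against CDMB and CDEB only Atf3 had an unadjusted p under 0.05 (0.27 ± 0.11 and 0.24 ± 0.11, with 5.80% and 6.64% of all genes under it and 0.0185% and 0.0232% called).

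**Figure D4:**
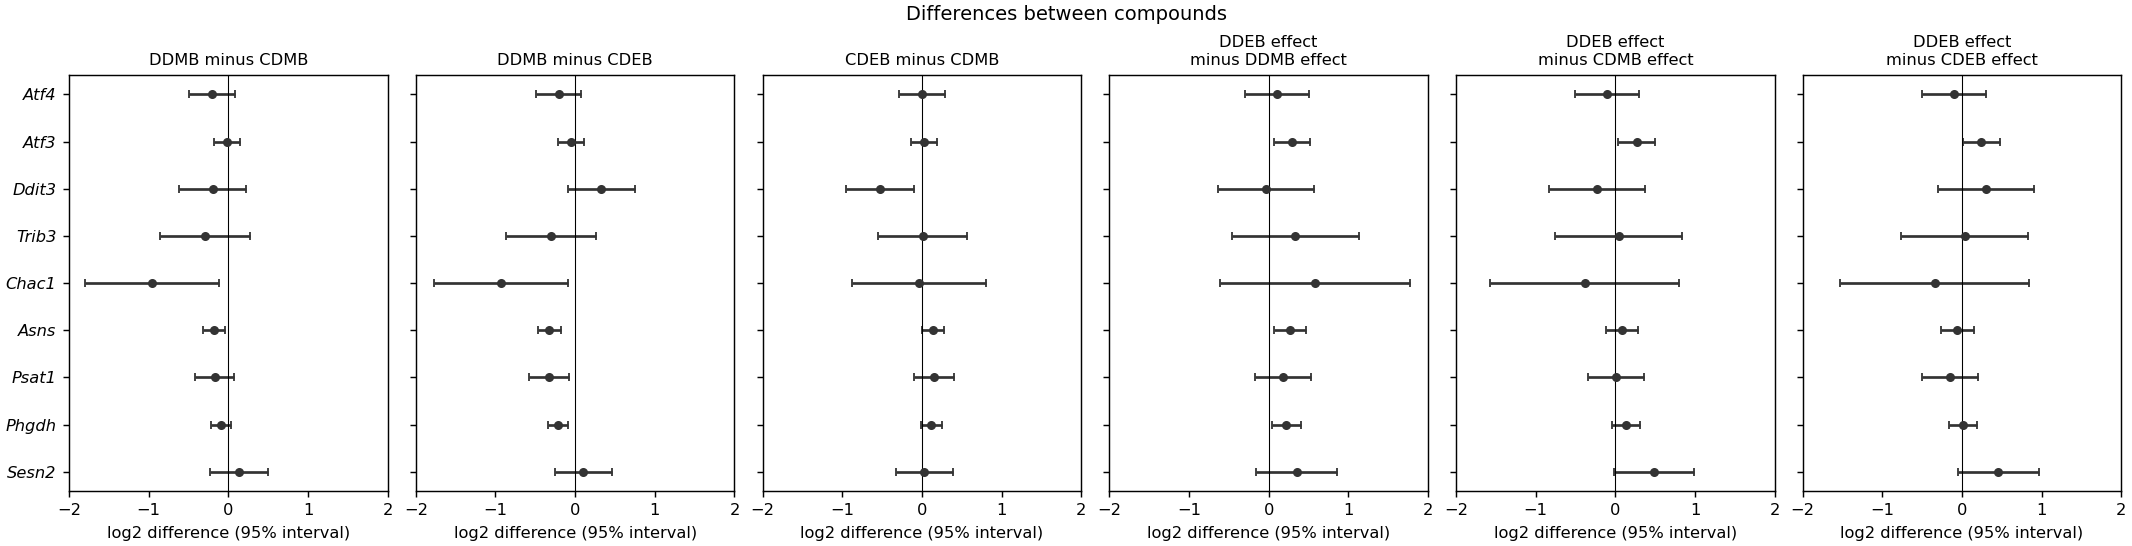
Log2 difference between compounds for each member (rows) with limma's 95% interval; the 3 panels on the right give the difference between the DDEB effect over VC_2 and another compound's effect over VC_1. Asns in DDMB minus CDEB (-0.32) lies farthest from 0 relative to its interval, and none of the differences passed after adjustment.

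Other genes of the pathway, with a neighbouring list of endoplasmic reticulum chaperones, were read in 7 lists of 127 genes, of which 117 were measured. With DDMB 2 of 117 rose and 0 fell (0.556% of all genes called), and with DDEB 1 rose and 0 fell (0.987%). With CDMB and CDEB 0 passed in limma (0.0417% and 0.134%). The 2 that rose are nitrogen-handling enzymes of liver. Ass1, which makes argininosuccinate in the urea cycle, lay at 5.28, 5.21 and 5.31 in VC_1 and at 5.75, 5.90 and 6.12 with DDMB (0.65 ± 0.090, adjusted p = 0.00457). Gls2, the liver glutaminase, lay at 3.46, 3.44 and 3.44 in VC_1 and at 3.75, 3.87 and 3.88 with DDMB (0.39 ± 0.058, adjusted p = 0.00668). It also rose with DDEB, from 3.44, 3.55 and 3.50 in VC_2 to 3.80, 3.86 and 3.86 (0.35 ± 0.058, adjusted p = 0.0157). The rise of Gls2 with DDMB was no longer called without DDMB replicate 3, and that with DDEB without VC_2 replicate 1 or 3 or DDEB replicate 2, with normexp background correction or in the authors' deposited tables. Neither rise of Gls2, nor that of Ass1, was called where only the arrays compared were fitted. Of the amino acid and one-carbon enzymes (16 of 16 measured) these were the ones called against DMSO. In each of the pairs DDMB minus CDMB and DDMB minus CDEB, 1 of the 16 was called higher (0.371% and 0.672% of all genes called). Bcat1, of branched-chain amino acids, had a larger difference (0.89 with CDMB) but did not pass (adjusted p = 0.516), and neither did Gpt2 (-0.51 with DDEB) or Cth (0.39 with CDEB). Without VC_1 replicate 3 the differences of Bcat1 and Cth were 0.34 and 0.12, and without DDEB replicate 3 that of Gpt2 was -0.27.

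Upstream of ATF4 lies the list of eIF2alpha kinases with their regulators, subunits of eIF2 and eIF2B, and phosphatase subunits (16 of 16 measured). It had 0 calls in limma, with 1, 4, 3 and 2 genes at an unadjusted p under 0.05 for DDMB, CDMB, CDEB and DDEB. In that order 9.90%, 13.3%, 13.3% and 15.2% of all genes had such a p, and the counts of the other lists have the same background. Ppp1r15a, the inducible phosphatase subunit that reverses eIF2alpha phosphorylation, lay at 4.01, 4.05 and 3.80 in VC_2 and at 4.41, 4.31 and 4.26 with DDEB. The groups did not overlap, and the difference of 0.37 ± 0.094 missed the threshold (limma adjusted p = 0.0879). Larger in size but less certain were the kinase gene Eif2ak2 (0.48 ± 0.31 with CDMB) and Ppp1r15b (0.44 ± 0.18 with CDMB), while Eif2ak4, the amino acid sensor GCN2, differed by -0.28 ± 0.12 with CDEB. Eif2ak2 differed by 0.085 without CDMB replicate 2, and without VC_1 replicate 3 Ppp1r15b differed by 0.24 and Eif2ak4 by -0.17. Among partner and other stress factors (15 of 16 measured, 0 called, with 1, 2, 2 and 1 at an unadjusted p under 0.05), Jdp2 was the largest, at -0.78 ± 0.21 with DDMB (adjusted p = 0.138). Fosl1 (-0.61), Cebpd (-0.50) and Junb (-0.38) followed, the first pair with CDEB and Junb with CDMB, none past the threshold. Without VC_1 replicate 3, Cebpd differed by -0.30 and Junb by -0.23.

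Against DMSO the amino acid transporters (13 of 15 measured) had 0 calls in limma, and 3, 3, 2 and 1 genes at an unadjusted p under 0.05. Between DDMB and CDEB 1 of the 13 was called lower (0.672% of all genes called). Slc7a5, the large neutral amino acid carrier, lay at -3.26, -3.58 and -3.52 in VC_1 and at -4.22, -4.44 and -4.27 with DDMB, without overlap (-0.86 ± 0.19, adjusted p = 0.0710). Its probe was dim on all arrays, and the filter asked for signal well above background in only 1 group, which need not be DDMB. Slc7a3 (-1.14 ± 0.51 with CDMB), Slc7a2 (0.79 ± 0.30 with DDMB) and the cystine carrier gene Slc7a11 (-0.65 ± 0.36 with DDMB) did not pass either. Slc7a3 differed by -0.71 and Slc7a2 by 0.47 without VC_1 replicate 3, and Slc7a11 by -0.32 without DDMB replicate 2. Among the aminoacyl-tRNA synthetases and tRNA export genes (20 of 21 measured) 0 were called, 2, 2, 1 and 2 had an unadjusted p under 0.05, and the list medians were -0.0039, 0.048, 0.045 and 0.059. Nars1 (-0.31), Vars1 (0.29) and Gars1 (-0.22), all with DDEB, were among the largest. Without DDEB replicate 3, Nars1 differed by -0.12 and Vars1 by 0.088. Of growth, redox and secreted targets (21 of 26 measured) 0 were called, and 0, 4, 7 and 3 had an unadjusted p under 0.05. Vldlr (0.85 ± 0.39), Ddit4 (0.79 ± 0.43) and the hormone gene Fgf21 (0.70 ± 0.46) with CDEB and Txnip (-0.67 ± 0.28) with DDEB were the largest there. Without VC_1 replicate 3 the differences of Vldlr, Ddit4 and Fgf21 were 0.37, 0.36 and 0.20, and without DDEB replicate 3 that of Txnip was -0.30.

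Chaperones of the endoplasmic reticulum, which belong to the ATF6 and XBP1 arms of the unfolded protein response rather than to ATF4, were read as a neighbouring list (16 of 17 measured). With CDMB 0 were called in limma and 5 had an unadjusted p under 0.05. All 16 means were higher than in VC_1, 12 of them without overlap (13.0% of all genes), with a median of 0.33. Edem1 (0.61 ± 0.42), Syvn1 (0.52 ± 0.21), Hsp90b1 (0.50 ± 0.22) and Dnajb9 (0.47 ± 0.22) were the largest. Without VC_1 replicate 3 the median was 0.16, with 15 higher, and these 4 differed by 0.18, 0.30, 0.27 and 0.23. On the slide that CDMB shared with CDEB, 10 of 16 were lower with CDEB without overlap (8.84% of all genes), with a median of -0.13 and 0 called. The list medians were -0.018 with DDMB, 0.14 with CDEB (0.036 without VC_1 replicate 3) and 0.024 with DDEB, with 0, 2 and 0 genes at an unadjusted p under 0.05.

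**Figure D5:**
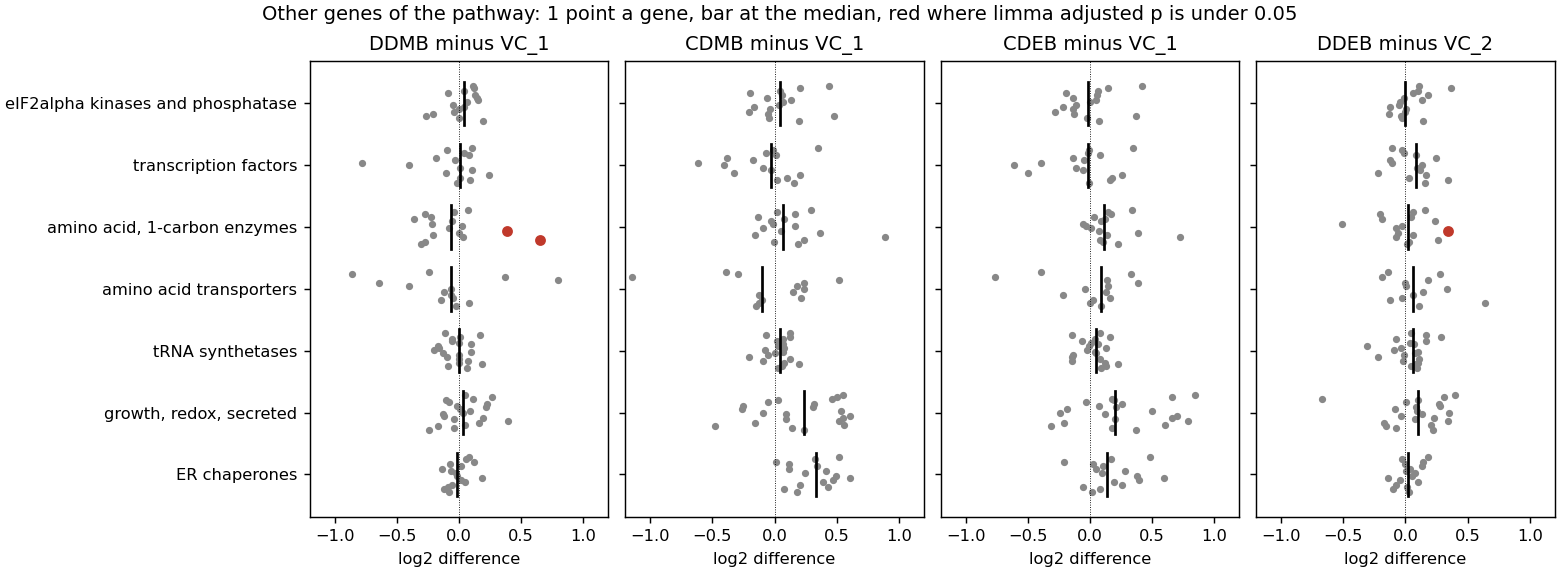
Log2 differences from DMSO (x axis) of the other pathway genes and the neighbouring chaperone list, 1 point a gene, in 7 lists (rows) for each compound. A bar marks the list median, and points are red where limma's adjusted p was under 0.05. Red marks Ass1 (0.65) and Gls2 (0.39) with DDMB and Gls2 (0.35) with DDEB, and the chaperone list with CDMB sits to the right of 0 (median 0.33).

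For each member the genes with the most similar profile over the 18 arrays were found as those with the smallest root mean square difference between levels centred on each gene's own mean. For Atf4 these were Apoa1 (0.051) and Mup4l1 (0.067), where the profile of Atf4 itself had a root mean square deviation of 0.18. Chac1 was nearest to Otub2 (0.13) and the cytochrome P450 gene Cyp2d3 (0.14), against its own 0.53. Trib3 was nearest to Mlxipl (0.12), a glucose-sensing factor, and to Srxn1 (0.12), against 0.31. Asns was nearest to the isoleucyl-tRNA synthetase gene Iars1 (0.057) and to Spata2 (0.069), against 0.15. Psat1 had Gorasp1 (0.070) and the methionyl-tRNA synthetase gene Mars1 (0.071), and Phgdh had Ubl4a (0.044) and Serpinf1 (0.047). Atf3 had Sppl2b (0.065) and Ttc13 (0.079), Ddit3 had Ifnk (0.15) and Tnfrsf1b (0.16), and Sesn2 had Zswim8 (0.13) and Gba2 (0.13). Among the members themselves the closest were Atf4 and Psat1 (0.11), and the farthest apart were Chac1 and Sesn2 (0.63). These distances follow the arrays that stood apart as well as the compounds.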

How the data were processed

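Gene expression was measured on 18 one-colour Agilent arrays of rat hepatocytes from 100 ng of RNA each, 3 in each of 6 groups. Per the file headers, the processed intensity deposited by the authors is a spot's Cy3 brightness, background-subtracted and detrended by the scanner software (Feature Extraction 10.7.1.1, build rn4). The authors' deposited tables hold signal on a linear scale, normalized in 2 sets because of chip lots per the labels' design text, whose scaling the sources used here do not give, and served as an alternative.

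Here each probe's unflagged spots were averaged as log2 intensity and set relative to the array's 75th percentile over the 45163 probes unflagged everywhere. Probes were named through their accessions and the RefSeq gene table (21109 of 45598 probes, assembly GRCr8). The filter kept 25306 probes that some group had well above background on each of its 3 arrays, and the brightest stood for its gene. One limma fit (3.58.1, R 4.3.3) of the 6 group means used the 18 arrays together, with Benjamini-Hochberg adjustment over all genes, within each comparison with DMSO and over all 6 pairs of compounds together. A gene was called at an adjusted p below 0.05. The fit was tested on simulated data with independent noise on each array, which leaves out the deviations that real arrays shared. The number of arrays limits the precision.

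The members and lists were chosen with earlier results of these data known. Named besides the members are list genes called against DMSO, up to 4 per list with the largest absolute change, and the 2 genes nearest to each member. One gene that this rule names is not reported here. The genes Cps1 and Cd68 were taken from the marker lists after their values were seen. Alternatives were normexp background correction (on median spot and background intensity, since the files have no mean signal), quantile normalization, no filter on dim probes, the mean of a gene's probes, the deposited tables, only the arrays compared, the replicate number or the slide as a block, and each array left out. Leaving out replicate 3 of both DMSO groups, the contrast of the DMSO groups, without and with the replicate number as a block, and leaving out arrays for named list genes were added after seeing the data. The numbers pair VC_1 with VC_2 by the correlation of their deviations (0.468 to 0.808).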

Additional observations from a re-analysis of the deposited data

How the results depend on the processing

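Over all alternatives, 1494 values of a member in a comparison were recomputed, and 2 had an adjusted p under 0.05 in limma. With the replicate number as a block, Atf3 with DDMB (-0.28) was called (adjusted p = 0.0365), so 1 member was called in that comparison in place of 0. With quantile normalization Asns was called for DDMB against CDEB (-0.31, adjusted p = 0.0407), so 1 member was called in that pair in place of 0. The block changed no other member's call. For VC_1 and DDMB, deviations of arrays of one number correlated at -0.421 to 0.557, and those of unequal numbers at -0.634 to 0.633. For VC_2 and DDEB the correlations were 0.0962 to 0.490 for equal numbers and -0.478 to 0.266 for unequal ones. In both cases the ranges overlap, so they do not settle whether the numbers pair VC_1 with DDMB or VC_2 with DDEB. With each array left out, 0 members were called in every comparison. The sign differed from the reported one in 85 of the 1494 values, none of which were called. With the slide as a random block (correlation 0.446) no member was called, and slide as a fixed block could be fitted only where slides are shared (DDMB, DDEB, CDEB minus CDMB, and DDEB against DDMB). The deposited tables were not used for the pairs with DDEB, since the 2 sets were normalized separately.

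Counts over all genes moved more. With each array left out they ran from 39 to 198 with DDMB (120 as reported), from 0 to 6 with CDMB (9), from 0 to 9 with CDEB (29) and from 51 to 359 with DDEB (213). With the other alternatives they ran from 0 to 245, 0 to 16, 0 to 40 and 0 to 436, with 0 in each where only the arrays compared were fitted; other alternatives, among them the slide as a random block, also gave 0 in some comparisons. With the replicate block they were 165, 16, 40 and 436. For the pairs, leaving out arrays gave 13 to 173 for DDMB minus CDMB (80), 14 to 260 for DDMB minus CDEB (145) and 0 to 5 for CDEB minus CDMB (13), and the other alternatives 0 to 181, 0 to 353 and 0 to 38. For DDEB against DDMB, CDMB and CDEB (6, 4 and 5) the ranges were 0 to 34, 0 to 21 and 1 to 27, and 0 to 14, 0 to 11 and 0 to 13. The rise of Ass1 with DDMB was called in all but 1 of 16 alternatives, that of Gls2 with DDMB in all but 2 and that of Gls2 with DDEB in all but 7, among them normexp, the deposited tables and both DMSO replicate 3 arrays left out.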
